A study of Mus musculus with 2 samples.

Results

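Alpha cells of the mouse pancreatic islet that carried a moderate amount of glucagon RNA were described in 2 single-cell RNA libraries. The cells were chosen by hormone RNA. Cells were kept where 500 or more genes were seen and mitochondrial transcripts made up no more than 15% of the UMIs (unique molecular identifiers, which count RNA molecules). Members were the kept cells in which Gcg, the glucagon gene, held at least 2% and less than 15% of the cell's UMIs, exceeded 2 times the sum of Ins1 and Ins2, the insulin genes, and exceeded both the sum of Ppy and Pyy and Sst, the genes of pancreatic polypeptide, peptide YY and somatostatin. This rule took 2159 of 15692 kept cells, of which 1328 of 6850 came from the control library and 831 of 8842 from the library labelled Spop bKO. The control mice were Spop fl/fl, which carry a floxed Spop gene that is intact without Cre, and the other mice were a beta-cell knockout of Spop, shortened here to Spop bKO. All were C57BL/6 females aged 12 weeks, and each group was a single library of hand-picked islets left for 3 days in RPMI medium with 10 mM glucose before dispersion. The Cre driver, the deleted exons and the number of mice per library were not given in the sources used here. SPOP is the adaptor by which a CUL3 ubiquitin ligase recognises its substrates.

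Alpha cells secrete glucagon, which raises hepatic glucose output when blood glucose falls and which also responds to amino acids. Proglucagon is cut to glucagon by the convertase PC2, encoded by Pcsk2, inside dense-core granules. The identity of mouse alpha cells rests on transcription factors, of which IRX1 and IRX2 are among those measured, and their Ttr, Gc and Slc7a2 genes encode transthyretin, the vitamin D-binding protein and a cationic amino acid transporter.

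The upstream sequence of Gcg is shown because the glucagon share chose the cells and because several of the measured transcription factors act through this promoter. The sequence is that of RefSeq on GRCm38.p6, chr2:62483654-62483803, minus strand, 150 bases that end just before the transcription start. Capitals mark matches on either strand to 4 motifs. The forkhead motif searched was spelled TATTTAC. The core of the site that MAF factors bind was spelled TCAGC. The core of homeodomain sites was spelled TAAT, and the box near the start that binds the TATA-binding protein was spelled TATAAA.
Gcg upstream sequence: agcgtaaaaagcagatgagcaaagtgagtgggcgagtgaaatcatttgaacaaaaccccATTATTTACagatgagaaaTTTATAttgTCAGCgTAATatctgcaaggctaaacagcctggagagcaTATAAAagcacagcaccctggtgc
The forkhead match lay at −89 to −83, counted back from the start, and overlapped a reverse-strand homeodomain core at −91 to −88. The MAF core lay at −63 to −59 and a forward homeodomain core at −57 to −54. The TATA box lay at −24 to −19, with a reverse-strand copy at −72 to −67. A second forkhead form that was searched, TGTTTAC, was not in this window. Among 32851 RefSeq upstream windows of this length, the printed forkhead form was in 1.44%, the second one in 1.8% and the TATA box in 7.57%. The MAF core was in 32.1% and the homeodomain core in 37.8%, so these matches are of a common kind. The matches describe letters and not binding. On mm10 the transcribed gene lies on chromosome 2, 62474530 to 62483650, minus strand. Irx2 lies on chromosome 13, 72628820 to 72634198, Gc on chromosome 5, 89417522 to 89457898, and Slc7a2 on chromosome 8, 40862396 to 40922308, all protein-coding. The 3′ chemistry reads mostly the 3′ ends of transcripts.

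Members formed 19.4% of the kept control cells (18.5% to 20.3%, exact binomial 95% interval) and 9.40% of the kept cells of the library labelled Spop bKO (8.80% to 10.0%). Intervals here and below cover counting error only. With 1 library per group there was no replicate and no test, and cells are not replicates, so each difference between libraries is one between these 2 preparations. The share of members moved with the share of all cells that met the hormone conditions at 2% glucagon or more, 24.9% and 11.6%, within which members were 77.9% and 80.8%. The beta gate, defined like the member gate but with insulin at 2% or more in the place of glucagon and no upper bound, held 3226 and 6675 cells. Fewer alpha cells and more cells of other types cannot be told apart in a share.

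The glucagon share had no gap at either bound of the rule. Members carried a median of 7.81% glucagon UMIs (control) and 8.14% (bKO-labelled), and the central 90% of cells lay between 2.89% and 13.8% and between 3.35% and 13.3%. These values follow from the rule and are given as a description. Of the cells that met the other conditions, 29 control and 12 bKO-labelled cells lay just below the lower bound, at 1.5% to 2% glucagon, and 23 and 9 just above it, at 2% to 2.5%. At the upper bound 49 and 21 members held 14% to 15% glucagon and 62 and 32 cells outside held 15% to 16%. The median number of genes per cell at the upper bound was 2691 inside and 2610 outside in the control library and 2211 and 2038 in the other.

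**Figure D1:**
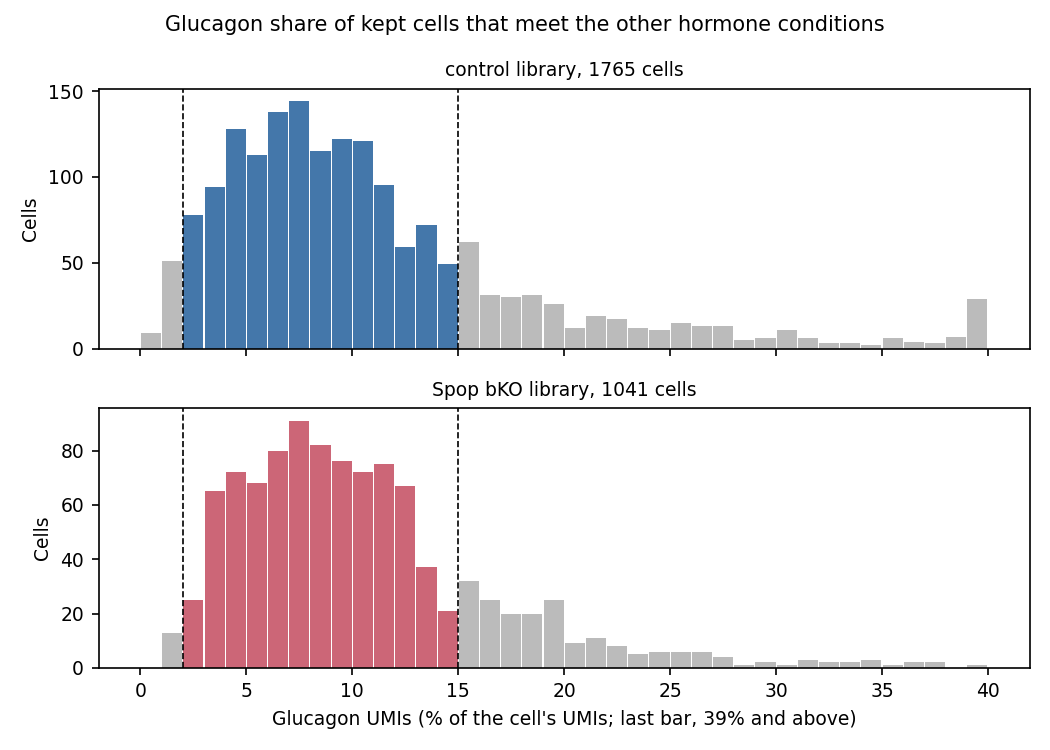
Number of kept cells (y axis) by the glucagon share of the cell's UMIs (x axis, bars of 1 percentage point) among cells that meet the other hormone conditions, with members in colour and the bounds of 2% and 15% dashed. In both libraries the cells run through the bounds without a gap, and 62 control cells lie in the bar just above 15%.

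Spop, the gene targeted in beta cells, should be intact in alpha cells under a beta-cell deletion. Members held 80.1 CPM of Spop (control) and 84.7 CPM (bKO-labelled), a log2 ratio of 0.08 (−0.07 to 0.23). CPM here are counts in each 1000000 UMIs outside the 6 hormone genes of the rule, scaled between gates by TMM. In the beta gate Spop stood at 70.2 and 89.8 CPM, so its 3′ tags were not lower in the library labelled Spop bKO in the cells where the deletion is meant to lie. Tags outside deleted exons do not check a deletion. Of the other ligase genes, Spopl was at 53.9 and 51.5 CPM in members, Cul3 at 150.6 and 148.5, and Rbx1 at 246.4 and 299.7. None of these 4 genes reached a 1.5-fold difference, and their median log2 ratio was 0.03. Over all genes measured in members only 0.75% were higher and 0.83% lower by that much.

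The cells carried the marker genes of alpha cells. Ttr, Irx2, Gc and Slc7a2 were all at least 1.5-fold higher in members than in the beta gate of the same library. Ttr reached 3252 and 4313 CPM in members against 310.2 and 244.6 in the beta gate, log2 ratios of 3.39 (3.36 to 3.42) and 4.14 (4.11 to 4.17). Irx2 reached 84.9 and 92.1 CPM against 6.35 and 4.48, and Gc 212.9 and 276.0 against 29.7 and 23.3. Slc7a2 differed least, at 141.4 and 137.7 CPM against 52.2 and 61.4. Of 8552 genes measured at a mean of 10 CPM or more, 436 (5.1%) were at least 1.5-fold higher in members than in the beta gate in both libraries and 511 (5.98%) were lower. With CPM over all UMIs these counts were 602 and 303.

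Ranked by the interval bound nearest to 0, the genes that led the members over the beta gate were Eef1a2, a translation elongation factor of neurons and muscle, Irx1, Etv1, an ETS-family transcription factor, Calb1, a calcium-binding protein, Higd1a, a mitochondrial protein, Kcnk3, the acid-sensitive background potassium channel TASK-1, Irx2, Gria2, a glutamate receptor subunit, Pappa2, a protease of IGF-binding proteins, and Ttr. Eef1a2 stood at 132.9 and 97.7 CPM in members against 7.65 and 6.54 in the beta gate. Etv1 stood at 334.5 and 370.6 against 25.9 and 21.7. Kcnk3 stood at 368.8 and 211.6 against 29.4 and 11.6, and it was thus high in alpha cells of both libraries, though less so in the library labelled Spop bKO.

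Seen cell by cell, Ttr was nearly universal, while Irx1 and Irx2 were found in a minority of thinned members. Each cell was thinned to 3000 UMIs, which left out 81 and 43 shallower members. In the beta gate it kept 2693 of 3226 control and 4684 of 6675 bKO-labelled cells, so more of that gate was left out. A Ttr UMI was then present in 95.5% of control and 97.0% of bKO-labelled members, against 32.2% and 27.7% of beta gate cells. A Gc UMI was present in 42.3% and 49.4% of members against 5.57% and 4.51%. An Irx2 UMI was present in 20.7% and 24.8% against 1.26% and 0.961%, and an Irx1 UMI in 16.3% and 15.1% against 0.817% and 0.512%. At least 1 UMI of Ttr, Irx2, Gc or Slc7a2 was seen in 98.4% and 99.1% of thinned members and in 41.7% and 37.8% of thinned beta gate cells. At least 2 of the 4 genes were seen in 65.9% and 71.2% of members against 7.39% and 7.41%. Without thinning Ttr was seen in 97.7% and 98.8% of members and 58.5% and 44.3% of beta gate cells, at median depths of 8204.5 and 6610 UMIs in members and of 9282.5 and 7767 in the beta gate. At these depths Irx2 was seen in 52.8% and 46.9% of members against 4.99% and 3.19% of beta gate cells. Irx1 was seen in 36.0% and 31.8% against 2.82% and 1.90%.

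Of 13 measured transcription factors of the list, 7 were at least 1.5-fold higher in members in both libraries and 1 was lower. The higher ones included Irx1, at 53.2 and 57.9 CPM against 3.36 and 2.65 in the beta gate. Neurod1, a factor of all endocrine cells, was at 156.0 and 170.4 CPM in members and 163.7 and 243.9 in the beta gate. Insm1, another pan-endocrine factor, was at 95.6 and 81.0 against 219.2 and 152.3. Between the libraries none of the 13 factors reached a 1.5-fold difference in members. Over all genes measured in members 0.75% were higher and 0.83% lower by that much, so this count does not set the factors apart. The median log2 ratio of the factors was 0.12, with Etv1 at 0.15 (0.08 to 0.22) and Insm1 at −0.24 (−0.39 to −0.09).

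**Figure D2:**
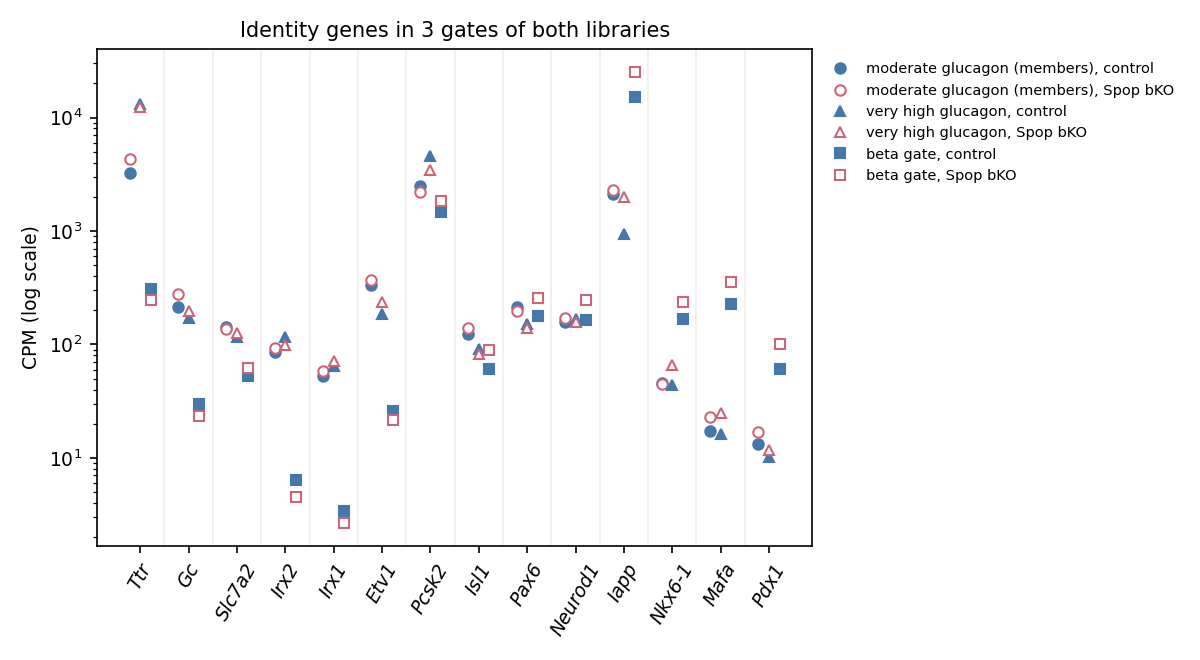
Level of 14 identity genes in CPM (y axis, log scale) in the moderate glucagon members (circles), the very high glucagon cells (triangles) and the beta gate (squares), control filled and Spop bKO open. Ttr, Gc, Irx2, Irx1 and Etv1 lie far above the beta gate in members of both libraries, and Iapp, Nkx6-1, Mafa and Pdx1 lie far below it.

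Beta cell genes were low in members but not absent, and insulin RNA differed between the libraries. The 7 beta cell markers outside the rule summed to 2199 and 2433 CPM, against 15840 and 26460 in the beta gate, and all 7 were lower in members by at least 1.5-fold in both libraries. Iapp, the amylin gene, was at 2099 and 2315 CPM against 15160 and 25280 in the beta gate. Mafa, a beta cell factor, was at 17.1 and 23.0 against 226.1 and 354.4, and Pdx1 at 13.3 and 16.7 against 61.0 and 100.8. Insulin, which the rule held below the glucagon count, made up 0.458% of all member UMIs (control) and 1.04% (bKO-labelled), where the beta gate held 15.9% and 18.1%. The median member carried 0.291% and 0.982% insulin, and every member of the library labelled Spop bKO carried at least 0.228%. Insulin reached 1% of UMIs in 98 control members (7.38%) and 402 bKO-labelled members (48.4%).

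The insulin UMIs of members were also shaped differently over cells. In the control library the 66 members richest in Ins2, 5% of the cells, held 45.4% of its UMIs, while the corresponding 42 members of the other library held 25.8%. In members thinned to 3000 UMIs the median cell held 7 Ins2 and 1 Ins1 UMIs (control) and 22 and 7 (bKO-labelled). Insulin RNA was thus found at a low level in every member of the library labelled Spop bKO. It was not particular to these members. In the control library all but the lowest 5% of members carried at least 0.126% insulin. The very high glucagon cells, which lie above the upper bound of the rule, each carried at least 0.0628% (control) and 0.390% (bKO-labelled). Insulin made up 0.2865% and 1.154% of all UMIs of those cells. The members were not passed through a doublet caller, and the part of free insulin RNA or of doublets in these values was not tested. Within members the 5 measured beta cell markers outside the rule had a median log2 ratio of 0.33 between libraries, beside 0.73 for these genes in the beta gate. Of them 1, G6pc2, passed 1.5-fold upward, at 8.87 and 17.5 CPM, beside 0.75% of all genes measured in members.

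Markers of other cell types were near 0 with a few exceptions. Endothelial Cdh5, lymphocyte Cd3e, Cd3d and Ms4a1 and glial Sox10 had no UMI in the members of either library. The summed CPM of the list was 2.09 and 2.13 for 5 endothelial genes, 1.88 and 2.58 for 5 lymphocyte genes, and 7.57 and 7.75 for 6 mesenchymal genes (Pdgfrb at 0 in the library labelled Spop bKO). The 7 measured acinar genes summed to 29.0 CPM in the control members and 3.496 in the others, led by Ctrb1, a chymotrypsinogen, at 11.6 and 1.37 CPM, and Cpa1 and Pnliprp1 had no UMI in the members of the library labelled Spop bKO. The 6 macrophage genes summed to 8.44 and 23.6 CPM, mostly C1qa, a complement gene, at 6.63 and 17.5 CPM, which stood at 7.07 and 60.4 in the beta gate. The 6 duct genes summed to 214.7 and 451.0 CPM, nearly all from Krt7 and Spp1. Of the genes that define duct cells, Krt19 had 1 and 14 UMIs in members and Sox9 17 and 13. Of the delta cell genes Rbp4 was high in members, at 1588 and 1647 CPM against 183.8 and 209.0 in the beta gate, and Hhex, the delta cell factor, was low at 6.06 and 6.69. Tspan8, the pancreatic polypeptide cell marker outside the rule, was at 19.7 and 26.0 CPM.

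A minority of members carried RNA of a further islet hormone. Ppy and Pyy together reached 1% of UMIs in 132 control members (9.94%) and 156 bKO-labelled members (18.8%). The 66 and 42 members richest in Ppy held 68.8% and 54.8% of the Ppy UMIs of all members. Sst was more concentrated, with 94.2% and 92.9% of its UMIs in the richest 66 and 42 members and no Sst UMI at all in 85.0% and 88.0% of members. These hormones were bounded by the rule, so that only their spread over cells is described.

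Members with more glucagon RNA also held more Ttr. The members were divided by glucagon share into 2% to 5% (300 and 162 cells), 5% to 10% (632 and 397) and 10% to 15% (396 and 272), a split chosen after values were seen. Over these steps Ttr went from 1846 to 3141 to 5790 CPM (control) and from 2115 to 4269 to 7422 CPM (bKO-labelled). Its log2 difference between the lowest and the highest step was −1.65 (control) and −1.81, in gates cut on another gene. Irx1 and Irx2 were also lowest in the lowest step of both libraries, with Irx1 at 40.6, 61.3 and 63.9 CPM and at 44.2, 59.5 and 80.1. Gc and Slc7a2 differed less in the control library, by −0.38 and −0.33 on the log2 scale, and by −0.17 and −0.84 in the other. Scg2, a secretogranin, was nearly level, at 807.9, 774.4 and 828.2 CPM and at 716.5, 750.9 and 737.1.

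Of 8615 genes measured, 98 (1.14%) were at least 1.5-fold higher at 2% to 5% than at 10% to 15% glucagon in both libraries and 60 (0.696%) were lower. The medians of all genes were 0.00 and −0.01. Without TMM scaling the counts were 155 and 24, and with CPM over all UMIs 298 and 10, so the balance of higher and lower genes rests on the scale. The genes named from this contrast were chosen after their values were seen. Those lower in the cells with less glucagon were led by Ttr, then Resp18, a protein of neuroendocrine granules, at 993.0 and 1268 CPM in the lowest step against 2079 and 2336 in the highest, Cst3 (cystatin C), and Ang (angiogenin). Also among the first 12 were Rnase4, Scg5, the chaperone 7B2 of the convertase PC2, Slc38a4, an amino acid transporter, Selenop and Serpine2, and the near-identical pair Tmsb15b1 and Tmsb15b2, whose reads may be split between them.

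The genes higher in the members with less glucagon were led by Shisal2b, at 59.2, 24.8 and 8.64 CPM over the steps in the control library and 70.4, 38.9 and 13.5 in the other. Iapp went from 3973 to 1852 to 1076 CPM in the control library and from 3405 to 2247 to 1838 in the other. Nupr1, a stress-induced chromatin protein that was at 745.5 and 1118 CPM in the beta gate, went from 353.8 to 159.9 to 106.8 and from 398.1 to 268.5 to 171.3. Igf1r, the IGF1 receptor gene, went from 240.8 to 153.1 to 104.6 and from 203.1 to 137.5 to 85.0. Svil (supervillin), Enho, S100a1, Hpgds (a prostaglandin synthase), Nabp1, Syt4, Avpi1 and Spock2 followed. The median insulin share, which the rule caps lower where glucagon is lower, was 0.319%, 0.297% and 0.265% over the steps in the control library and 0.926%, 1.00% and 0.984% in the other. An Iapp UMI was found in 83.6% and 97.0% of thinned members, with a median of 2 and 4 UMIs, and the richest 5% of members held 58.7% and 40.0% of all Iapp UMIs. The Iapp contrast was 1.89 and 0.89 on the log2 scale over all members and 2.03 and 1.03 among members with insulin below 1%, and the part of beta cell RNA in it was not tested. The number of genes per cell moved with the steps as well, with medians of 3143, 2965.5 and 2798 genes and of 2725.5, 2496 and 2318.5, as did the mitochondrial share in the control library, 4.19%, 3.86% and 3.28%, beside 2.19%, 2.20% and 2.10% in the other. Their part in these contrasts was not tested. With each cell thinned to 3000 UMIs Iapp differed by 1.43 and 0.52, Nupr1 by 1.64 and 0.59 in place of 1.73 and 1.22, and Ttr by −1.66 and −1.74.

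**Figure D3:**
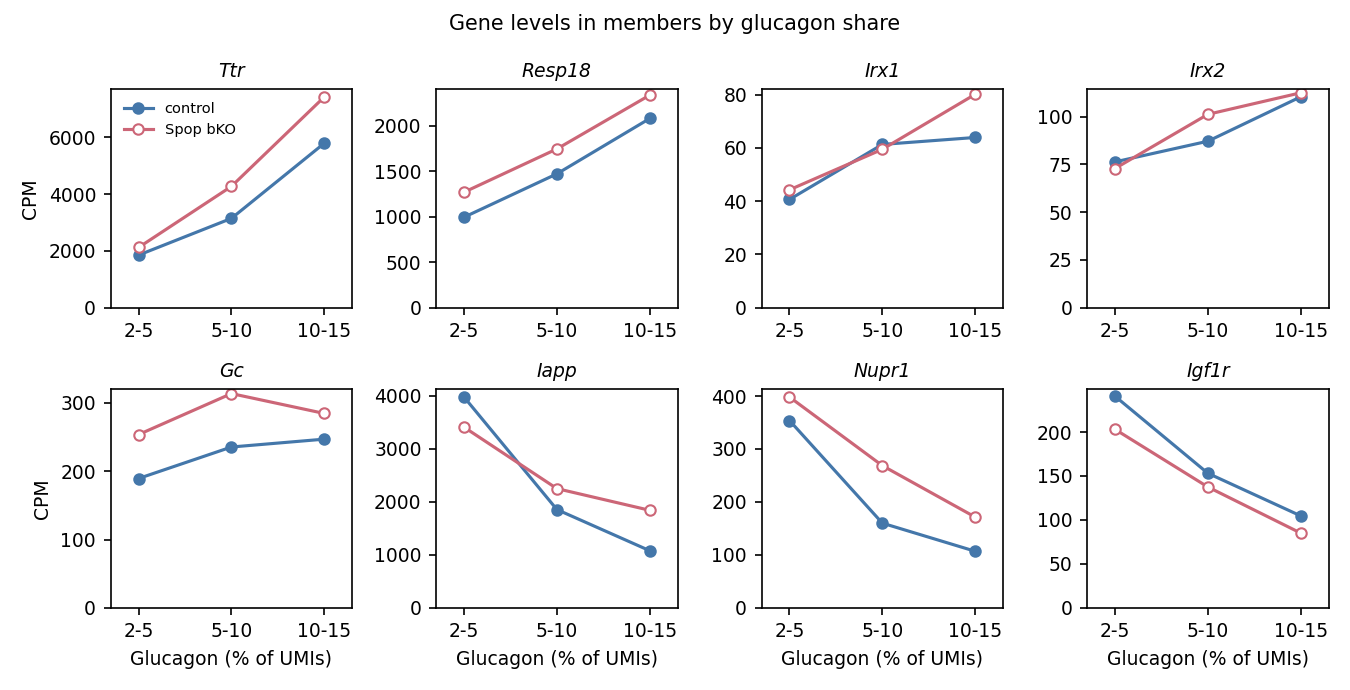
Level in CPM (y axes, from 0) of 8 genes in members with 2% to 5%, 5% to 10% and 10% to 15% glucagon (x axes), control filled and Spop bKO open. Ttr and Resp18 are higher in each step of the glucagon share in both libraries, Ttr from 1846 to 5790 CPM in the control library, and Iapp, Nupr1 and Igf1r run the other way.

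Beyond the upper bound, cells with 15% or more glucagon numbered 377 and 197. Members held less Ttr than these very high glucagon cells, 3252 and 4313 CPM against 13260 and 12410, log2 ratios of −2.03 (−2.05 to −2.01) and −1.53 (−1.56 to −1.49). The other markers differed by less than 1.5-fold and not all in one direction. Slc7a2 was at 141.4 and 137.7 CPM against 115.3 and 126.1, and Gc at 212.9 and 276.0 against 170.2 and 197.0. Irx2 was at 84.9 and 92.1 CPM against 115.3 and 98.5, log2 ratios of −0.44 (−0.65 to −0.23) and −0.10 (−0.45 to 0.27). The very high cells also had fewer genes, with medians of 1970 and 1621 against 2928.5 and 2470, and a lower mitochondrial share, 1.75% and 1.15% against 3.72% and 2.14%. The part of these in the ratios was not tested.

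Of 8374 genes measured, 306 (3.65%) were at least 1.5-fold higher in members than in very high glucagon cells in both libraries and 318 (3.8%) were lower. Without TMM the counts were 996 and 122, and with CPM over all UMIs 2222 and 47, so the split of higher and lower genes rests on the scaling. Lower in members were Gadd45b, a stress-induced regulator of p38 signalling, at 75.3 and 57.6 CPM against 330.2 and 319.1, and Tmem140, at 21.4 and 15.4 against 94.5 and 94.5. Ttr, Ctxn2, Ankrd33b, Arl4c and the transcripts 4932422M17Rik and 6230400D17Rik came next. Higher in members were Egr1, an immediate early transcription factor, at 161.8 and 124.9 CPM against 65.5 and 44.6, and Nupr1, at 187.1 and 262.5 against 62.5 and 139.2. Snapc5, Smarcb1, Adm2, Rbm3 and Uap1l1 were also among them, and Enho and Hadh were left out of this ranking because another gate held at least 5 times as much, as were Clu, Lgals3 and Rab26os among the lower ones. For 2 of these last 3 that gate was the delta gate alone, the cells in which Sst led, which numbered only 6 and 5. Of 15 granule genes 4 were lower in members by 1.5-fold and 1 was higher, with medians of −0.32 and −0.08 beside 0.03 and 0.05 for all genes. Among them Pcsk2 was at 2493 and 2189 CPM against 4564 and 3424, Pcsk1n, the PC1 inhibitor proSAAS, at 2164 and 2161 against 4766 and 3851, and Scg5 at 898.8 and 1017 against 1923 and 1735.

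Between the libraries, members differed little in most genes. Of 8799 genes at a mean of 10 CPM or more, 66 (0.75%) were at least 1.5-fold higher in the library labelled Spop bKO and 73 (0.83%) were lower, with a median log2 ratio of −0.01. With CPM over all UMIs these counts were 51 and 99. The counts were 244 and 269 with each cell thinned to 3000 UMIs, which lowers the UMIs behind each gene, and 136 and 138 with each cell weighted equally. None of the 4 alpha cell markers outside the rule reached a 1.5-fold difference, as was so for most genes. Ttr had a log2 ratio of 0.41 (0.39 to 0.43), Gc of 0.38 (0.29 to 0.46), Irx2 of 0.12 (−0.03 to 0.26) and Slc7a2 of −0.04 (−0.15 to 0.08). In the beta gate these 4 ratios were −0.343, −0.35, −0.502 and 0.235. Gcg itself was 7.75% of member UMIs in the control library and 7.88% in the other, shares that the rule bounds in both.

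First among the genes above control was Spp1, encoding osteopontin, a secreted phosphoprotein. It was at 92.9 CPM in control members and 301.7 in the others, a log2 ratio of 1.70 (1.60 to 1.80), and its UMI was found in 15.8% and 38.5% of thinned members, beside 4.79% and 13.4% of thinned beta gate cells. In the beta gate Spp1 was at 38.3 and 173.1 CPM, so it was higher in members than in beta gate cells of the same library. The library labelled Spop bKO held more Spp1 in both gates. It also did in the very high glucagon cells, at 67.6 and 496.3 CPM, a log2 ratio of 2.88 (2.59 to 3.17). The first 12 also held genes of the interferon and antigen presentation list. B2m, the MHC class I light chain, was at 123.6 and 231.2 CPM (log2 ratio 0.90, 0.80 to 1.00), H2-D1, a class I heavy chain, at 275.6 and 436.5, and Bst2 (tetherin), an interferon-induced antiviral protein, at 30.9 and 58.4. Of 13 measured genes of the interferon and antigen presentation list, 5 passed 1.5-fold upward and none downward, and 10 lay above 0. Over all genes measured in members 0.75% were higher and 0.83% lower by that much, and 4220 of 8799 lay above 0. The median of the list was 0.41 in members beside 0.79 in the beta gate. Isg15, Ifit3 and Irf7, classical interferon targets, were at 0.144 and 1.06, 0.577 and 1.22, and 1.80 and 3.34 CPM, below the minimum, and Ifit1 was at 17.5 and 13.5.

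Other leading genes above control were the predicted gene Gm10076 at 323.0 and 647.3, and Rnase1, a secreted ribonuclease, at 19.9 and 44.1. Rnase1 was lower in the beta gate of the library labelled Spop bKO, 9.83 and 3.80 CPM. The 66 and 42 members richest in Rnase1 held 53.6% and 52.8% of its UMIs in members. Aga, Gstp1, Nucb2 and Serping1 were also among the first 12, as was the granule protein Chga. Upk3a, encoding a uroplakin, was singled out after its values were seen, being below the ranking minimum of 25 CPM. It was at 1.88 CPM (26 UMIs) in control members and 20.1 CPM (132 UMIs) in the others. Its level was 2.03 and 19.7 in very high glucagon cells and 0.812 and 1.13 in the beta gate. Few cells carried it, as the 42 richest members of the library labelled Spop bKO held 79.55% of its UMIs there. Enpp2, Chgb and Fkbp11 passed 1.5-fold but were left out of the ranking because another gate held at least 5 times as much, for 2 of these 3 the delta gate alone, with its 6 and 5 cells.

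The granule list held 16 genes, all measured, of which 2 passed 1.5-fold upward and 1 downward. These counts are to be read beside 0.75% higher and 0.83% lower over all genes measured in members. Chga, chromogranin A, was at 1199 and 1997 CPM, a log2 ratio of 0.74 (0.70 to 0.77). Chgb, chromogranin B, was at 470.1 and 844.3, a ratio of 0.85 (0.79 to 0.90). The beta gate held far more of both in the library labelled Spop bKO, with Chga at 2524 and 5672 CPM and Chgb at 752.3 and 3580, and the part of free RNA from beta cells in the member values was not tested. Among the 1230 and 429 members with insulin below 1% the ratios were 0.72 for Chga and 0.76 for Chgb. Every bKO-labelled member carried at least 0.228% insulin, so this bound cannot set free RNA aside. In the very high glucagon cells Chga was at 2377 and 2786 CPM, a ratio of 0.23 (0.15 to 0.30), and Chgb at 591.3 and 890.3. Vgf, a granule peptide precursor, was lower at 59.9 and 38.9 CPM (−0.62, −0.83 to −0.42). Pcsk2 differed by −0.19, Cpe by −0.20, Resp18 by 0.26 and Scg3 by 0.25, with a median of 0.13 over the list.

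Genes below control were led by Gm42418 and by transcripts of the mitochondrial genome. Gm42418, a predicted gene that overlaps ribosomal RNA sequence, was at 21040 CPM in control members and 9376 in the others, and Lars2, the mitochondrial leucyl-tRNA synthetase, at 484.8 and 264.0. These 2 genes were not particular to members. Gm42418 had log2 ratios of −1.555 in the beta gate and −1.263 in the very high glucagon cells, and Lars2 of −1.245 and −1.198. mt-Nd2, a subunit of complex I, was at 7202 and 3922 CPM, a log2 ratio of −0.88 (−0.90 to −0.86), and mt-Cytb, of complex III, at 3414 and 1898. Of 13 mitochondrially encoded genes measured, 12 were lower and 8 by at least 1.5-fold, with a median of −0.64. Over all genes measured in members 0.83% were lower by that much, and 4579 of 8799 lay below 0. In the beta gate all 13 were higher, with a median of 0.38. In the very high glucagon cells mt-Nd2 and mt-Cytb were lower, as in members, with log2 ratios of −0.73 and −0.69. The mitochondrial share of the median member was 3.72% in the control library and 2.14% in the other. The part of RNA quality in this was not tested. Kcnk3 was the leading gene of other kinds, at 368.8 and 211.6 CPM (−0.80, −0.89 to −0.72), with a UMI in 56.7% and 43.3% of thinned members and 4.38% and 2.07% of thinned beta gate cells, and Hist1h1e, a linker histone, followed at 216.1 and 128.0.

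**Figure D4:**
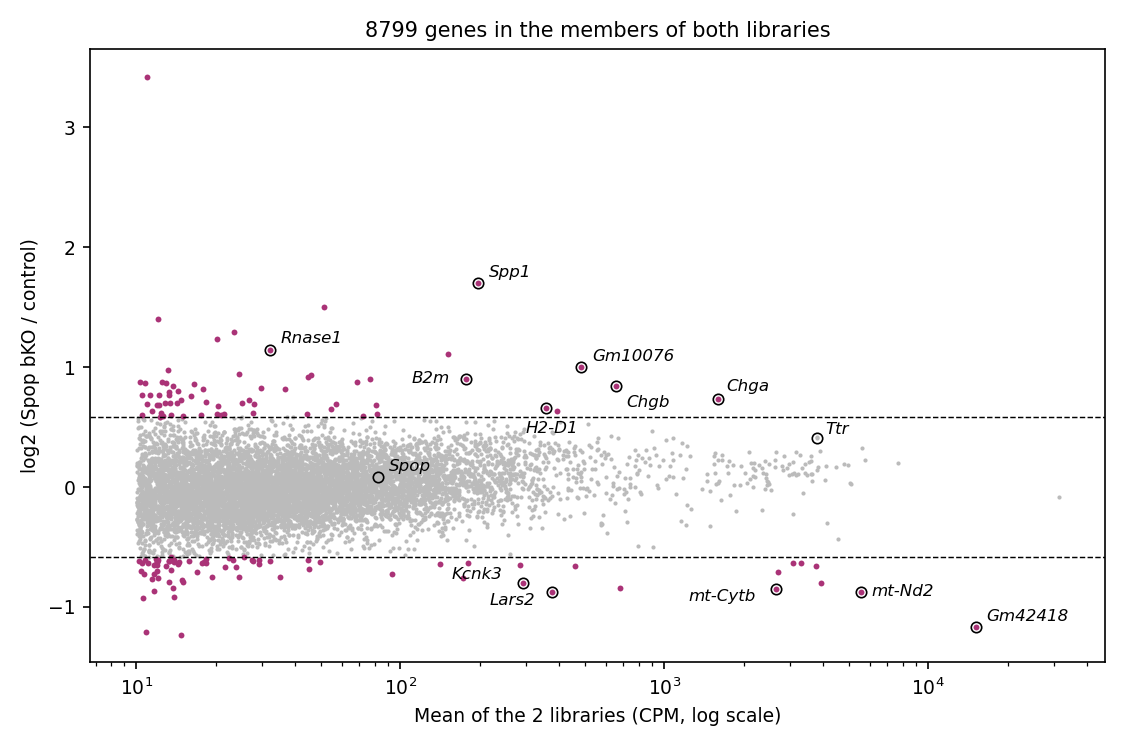
Log2 ratio of Spop bKO to control (y axis) against the mean level in CPM (x axis, log scale) for the 8799 genes measured in members, with genes past 1.5-fold coloured and the 1.5-fold lines dashed. Most genes lie near 0, and Spp1 at 1.70 and Gm42418 at −1.17 stand out among abundant genes.

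Functions of the alpha cell were covered by 4 more lists. Their counts past 1.5-fold are to be read beside 0.75% higher and 0.83% lower over all genes measured in members. Of 17 measured ion channel and exocytosis genes 1 passed 1.5-fold, downward, the sodium channel subunit Scn3b at 14.5 and 8.51 CPM, and the list median was −0.07. Abcc8, the sulfonylurea receptor of the ATP-sensitive potassium channel, was at 340.7 and 285.6 CPM, and its partner Kcnj11 at 45.7 and 46.1. Of 17 receptors only 7 reached 10 CPM. Adrb1, the beta-1 adrenergic receptor that mediates adrenaline action on glucagon release, was lower at 13.9 and 7.30 CPM (−0.92, −1.41 to −0.46), and Glp1r, the incretin receptor, was at 24.95 and 33.6, beside 167.2 and 335.7 in the beta gate. The receptor median was −0.15 in members, and it was 0.01 when receptors under 10 CPM were counted too. Avpr1b, the vasopressin receptor of alpha cells, was at 45.9 and 43.2 CPM against 2.49 and 1.76 in the beta gate. None of 9 measured amino acid transporters passed 1.5-fold (median −0.08), with Slc38a2 at 205.2 and 150.6 CPM and Slc7a5 at 42.9 and 50.3. Of the 10 other alpha cell genes measured none passed 1.5-fold (median 0.12), with Cltrn (collectrin) at 291.2 and 359.8 CPM, Cryba2 at 32.2 and 43.5 and Mamld1 at 18.8 and 14.3.

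The stress lists are given with their genes past 1.5-fold, to be read beside 0.75% higher and 0.83% lower over all genes measured in members. Over all 8799 genes measured in members 4220 lay above 0 and 4579 below, beside which the counts of signs are to be read. The study's title names the unfolded protein response of beta cells, and the same genes were therefore read in members. Of 20 ER chaperone and unfolded protein response genes none passed 1.5-fold and 13 lay above 0, with a median of 0.16 beside 0.08 in the beta gate. Hspa5, the chaperone BiP, was at 1441 and 1647 CPM in members (0.19, 0.16 to 0.23) and at 2046 and 1463 in the beta gate, and Manf, a secreted ER stress protein, at 226.9 and 300.6. Dnajb9, a co-chaperone, was at 211.4 and 178.9. Of 21 integrated stress response genes 19 lay below 0 but only Ddit4 passed 1.5-fold, at 21.9 and 14.1 CPM, and the median was −0.24 beside −0.52 in the beta gate. Atf4, the factor that drives this response, was at 457.0 and 380.0 CPM, and Ddit3 (CHOP) at 833.9 and 803.0. Nupr1 lay on the other side, at 187.1 and 262.5.

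Of 15 p53 target genes 13 lay below 0 and none passed 1.5-fold, with a median of −0.27 beside −0.71 in the beta gate. Cdkn1a (p21), the most abundant, was at 609.6 and 590.6 CPM in members and at 460.7 and 230.3 in the beta gate, and Trp53inp1 at 221.4 and 157.8 in members. Of 13 cytosolic heat shock genes 1 passed 1.5-fold, downward, Hspa1b at 12.8 and 8.21 CPM, and the median was −0.07 beside −0.54. Of 13 immediate early genes 1, Myc, passed 1.5-fold, downward, at 35.3 and 23.1 CPM, and the median was −0.17 in members beside 0.38 in the beta gate, with Fos at 62.7 and 47.4 in members and 33.1 and 133.8 in the beta gate. All these medians are to be read beside −0.01 for all genes in members and −0.05 for these genes in the beta gate. Of 8 cell cycle genes only Pcna and Mcm2 reached 10 CPM, and a UMI of Mki67, the proliferation marker, was seen in 0.401% and 0.635% of thinned members, near the 0.520% and 0.448% of the beta gate.

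**Figure D5:**
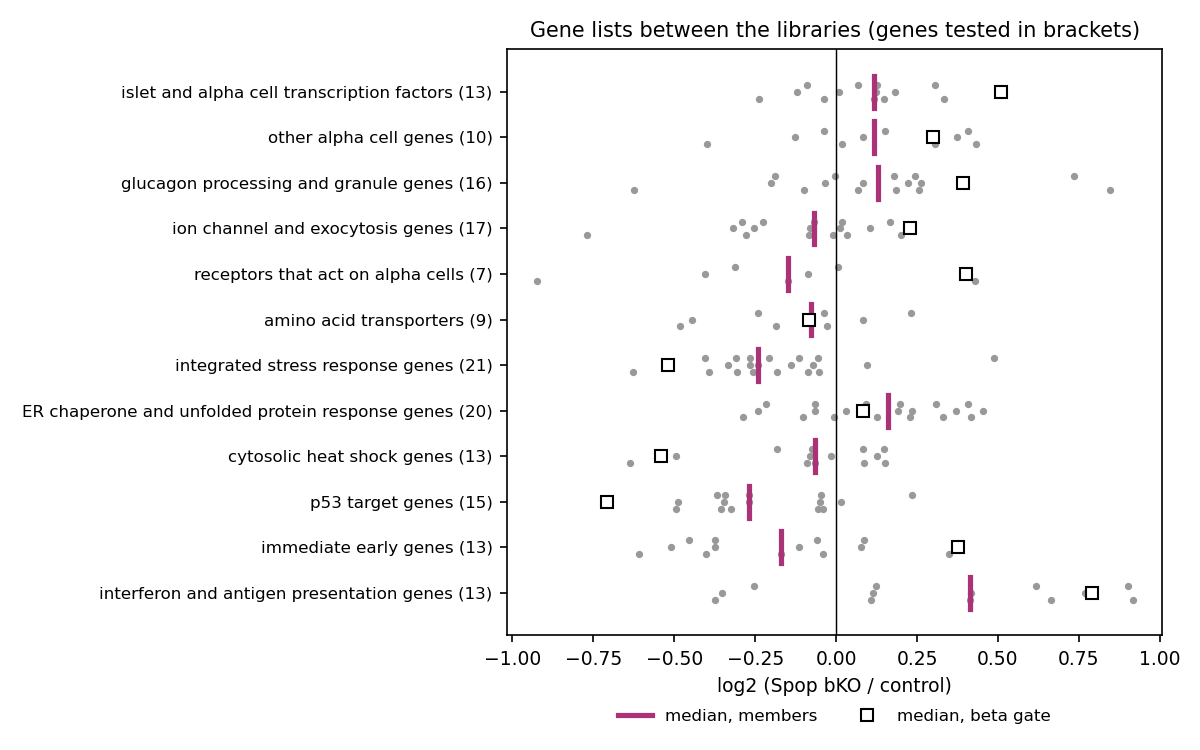
Log2 ratio of Spop bKO to control in members (x axis) for each measured gene (points) of 12 lists (y axis, number of genes in brackets), with the median in members (bars) and in the beta gate (squares). The interferon and antigen presentation list has the highest median in members, 0.41, and the p53 list the lowest, −0.27.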

How the data were processed

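Single-cell RNA was measured in islets of 2 groups with 1 library each. Both deposited matrices hold raw UMI counts over 32285 features and, per the file headers, come from Cell Ranger 6.0.0; mm10, R 4.1.1 and Seurat 4.1.0 come from the submitters' processing notes. Depth was 82541585 UMIs over 7768 control barcodes and 89977773 UMIs over the 10033 barcodes of the library labelled Spop bKO. The tables shared 21 barcodes, of which none was a member in both. Doublets were not removed.

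Member UMIs (14257287 and 6931925) were summed per gate and library and scaled to CPM outside the 6 hormone genes, with TMM factors. The TMM code was checked against edgeR on the UMI sums of the moderate and very high glucagon gates. Log2 ratios carry exact conditional 95% intervals, and shares carry Clopper-Pearson intervals. Genes counted had a mean of at least 10 CPM; a call means 1.5-fold. No test was possible with 1 library per group, and intervals ignore variation between animals.

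Members and lists were chosen with earlier results of these data known. Named genes were the hormone genes, the markers, Spop, Spopl and Cul3, per list as many as 5 genes of largest ratio, any measured alpha marker, factor, other alpha cell or granule gene, and the first 12 (libraries), 8 (very high) and 10 (beta gate) genes of each ranking at 25 CPM or more; genes outside this rule were named to describe a list, a count or the split by glucagon share and were chosen after their values were seen. Some genes that this rule names are not reported here. Of the listed acinar genes, Amy2b was not matched. Symbols with 2 identifiers kept the one with more UMIs. Gene positions came from GENCODE M21. Python 3.11.15, numpy 2.4.6, scipy 1.17.1 and pandas 2.3.3 were used. The alternatives tried covered scaling, weighting, cell filters, thinning and the CPM minimum.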

Additional observations from a re-analysis of the deposited data

Results flagged for a closer look

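Among the genes leading the difference between libraries and at a mean of 10 CPM or more in both members and the beta gate, 2 had ratios past 1.5-fold in opposite directions in these gates. mt-Nd4 had a log2 ratio of −0.64 in members, at 3737 CPM (control) and 2404 CPM (Spop bKO), and of 0.63 in the beta gate, at 2044 and 3162. mt-Co2 had a ratio of −0.63 in members, at 4021 and 2596 CPM, and of 0.59 in the beta gate, at 2638 and 3978. In the very high glucagon cells mt-Nd4 and mt-Co2 had ratios of −0.64 and −0.60, in the direction of the members. Rnase1, below that mean in the beta gate, also had opposite ratios, 1.15 in members and −1.37 in the beta gate. With 1 library per group these differences between the gates were not tested.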

How the results depend on the processing

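Up to 11 alternatives were run for each result; those for the beta gate and for the split by glucagon share were added after seeing the data. The share of members was 21.4% and 11.3% at 1000 or more genes, 15.01% and 7.57% at 5% or more glucagon, and 18.0% and 4.85% with insulin below 1%, always lower in the library labelled Spop bKO. Genes higher between libraries numbered 136 with cells weighted equally, 123 with insulin below 1%, 244 after thinning, 119 without the 10% of members with most UMIs and 2522 with no minimum CPM. Genes lower numbered 138, 161, 269, 120 and 3383 under the same settings and 114 at 5% or more glucagon. Against very high glucagon cells, higher genes numbered 996 without TMM, 2222 with CPM over all UMIs, 602 with cells weighted equally, 512 after thinning and 2599 with no minimum, and lower genes 122 without TMM, 47 with CPM over all UMIs and 985 with no minimum. Against the beta gate, higher genes numbered 2254 with no minimum, and lower genes 303 with CPM over all UMIs, 848 with cells weighted equally and 3099 with no minimum. Over the glucagon split, higher genes numbered 155 without TMM, 298 with CPM over all UMIs, 65 without the richest cells and 960 with no minimum, and lower genes 24 without TMM, 10 with CPM over all UMIs, 156 after thinning and 637 with no minimum. The cause was not tested, except that no minimum adds genes with few UMIs. The receptor list's median went from −0.148 to 0.007 with no minimum. Of the values for single genes between libraries 999 stayed within the counting interval and 123 moved out of it, and each change of sign was in a gene whose interval held 0. The other alternatives run kept each count within 1.5 times; weighting cells equally and a 5% glucagon minimum were not run for the glucagon split. No paired analysis was possible because each group is 1 library, and no library could be left out. Depth limits the sparse receptors and factors.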
